A study of Arabidopsis thaliana with 10 samples.

Results

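The 10 Arabidopsis genes that encode cellulose synthase catalytic subunits, CESA1 to CESA10, were followed across hypocotyls with low gibberellin, low brassinosteroid or both. They were taken by locus identifier (AT4G32410, AT4G39350, AT5G05170, AT5G44030, AT5G09870, AT5G64740, AT5G17420, AT4G18780, AT2G21770 and AT2G25540 for CESA1 to CESA10 in that order). No cut on their values was used, though earlier results of these data were known. All 10 were found among the 33518 genes of each of the 3 deposited tables. RNA came from tissue labelled hypocotyl of Col-0 seedlings kept in darkness for 4.5 days, in 5 groups of 2 sequencing libraries. PAC (paclobutrazol), which blocks gibberellin synthesis, was in the medium of every group, controls included, at 1 µM. Wild type on PAC with mock solution and wild type on PAC with 10 µM GA3, an active gibberellin given for 12 hours, made up 2 groups. The same mock and GA3 treatments on medium that also held PPZ (propiconazole), which blocks brassinosteroid synthesis, at 2 µM, made up 2 more. The last group, mock-treated on PAC and PPZ, was bzr1-1D, a dominant mutant in which the brassinosteroid-responsive transcription factor BZR1 is stabilised. GA3 in bzr1-1D, and bzr1-1D without PPZ, were not among the groups, so the mutant is seen on doubly inhibited medium alone.

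Cellulose synthases sit in rosette-shaped complexes in the plasma membrane, draw on UDP-glucose and spin out the glucan chains that form cellulose microfibrils. A working complex needs several different isoforms. CESA1, CESA3 and CESA6, the last partly interchangeable with CESA2, CESA5 and CESA9, build the primary wall of growing cells, whereas CESA4, CESA7 and CESA8 build the thick secondary wall of xylem and fibres. CESA9 is best known from the seed coat, and CESA10 is the closest relative of CESA1. In a dark-grown hypocotyl, where cells lengthen many times over, gibberellin and brassinosteroid both promote elongation, and new cellulose has to be laid down as the wall extends.

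The deposited tables give a mean for each group. Whole reads of each library were recovered from these means, and the members of each pair of libraries are told apart as the deeper and the shallower one. Recovered reads in genes numbered 7907858 to 16551011 a library. Levels below are normalised reads, that is, reads divided by a size factor for the library. The labels do not say whether a sample and its repeat came from separate plants, so p-values reflect only library-to-library spread, and this may be technical. The wild-type PAC pair was the least alike, with a log2 SD of 0.244 between its libraries against 0.0890 to 0.164 in the other pairs. Of 7 root markers, 6 or 7 had reads in every library despite the hypocotyl label. Of 9 seed reserve genes, all had reads in every library. In bulk tissue, fewer cells of a type and less RNA per cell cannot be told apart.

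The primary wall trio dominated the family. Per kilobase of coding sequence, CESA1, CESA3 and CESA6 together made up 85.2 to 87.8% of all CESA reads in the 10 libraries. CESA2 and CESA5 made up 8.51 to 11.7%, the secondary wall trio 2.65 to 4.30%, CESA9 0.107 to 0.224% and CESA10 0.00842 to 0.0904%. The order of group means per kilobase was CESA1, CESA3, CESA6, CESA2, CESA5, CESA4, CESA7, CESA8, CESA9 and CESA10 in all 4 wild-type groups. In bzr1-1D it differed in that CESA3 (3539 ± 150 normalised reads per kilobase, SD, n = 2) stood above CESA1 (3513 ± 275). The libraries of CESA1 and CESA3 overlapped in the 3 groups grown with PPZ, and those of CESA7 and CESA8 in all groups but the wild type on PAC and PPZ. All other neighbours in the order were separated in every group.

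**Figure D1:**
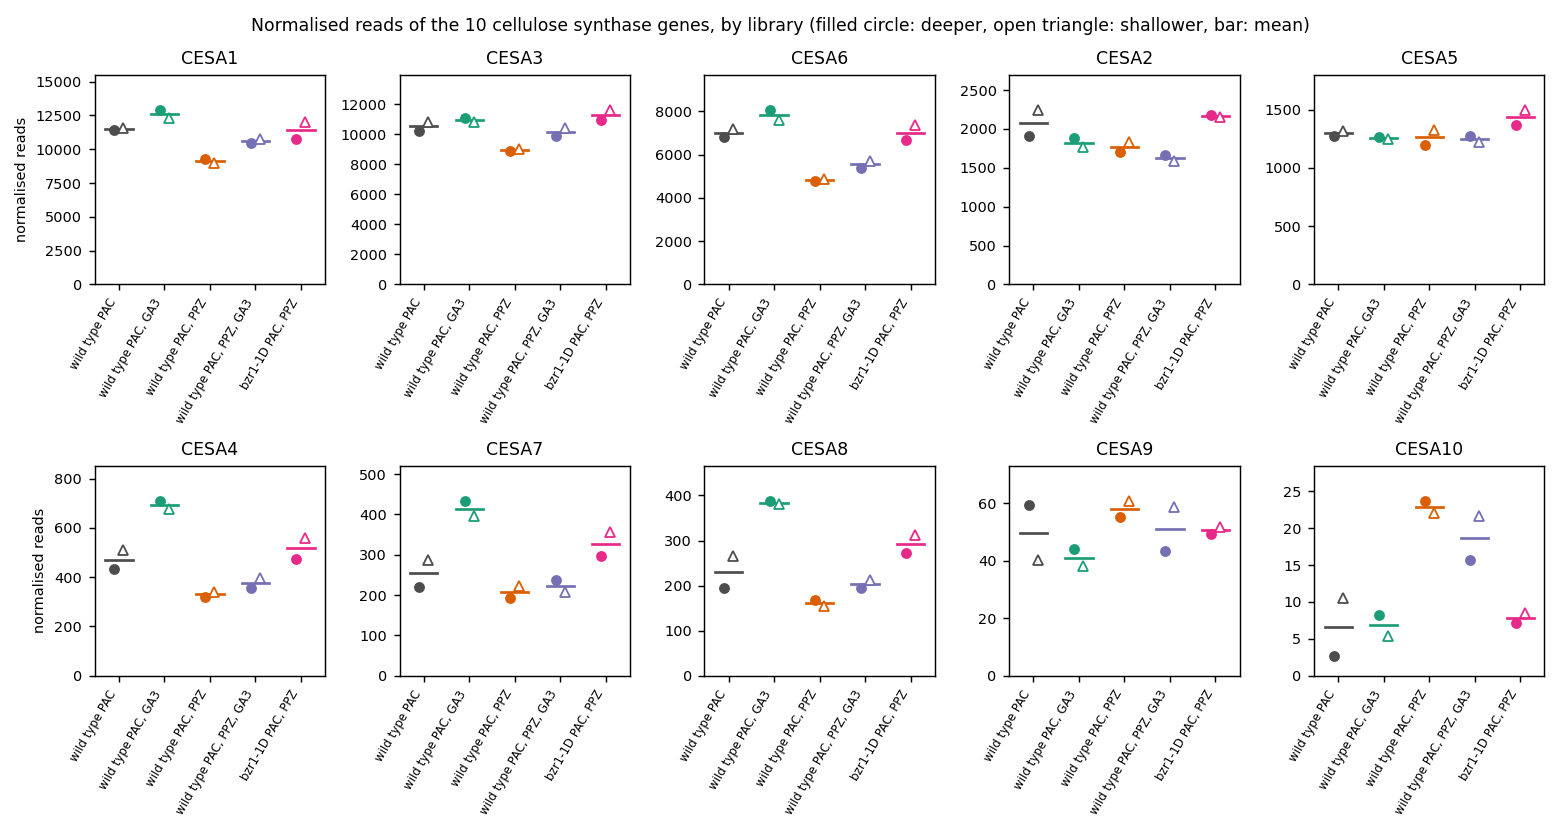
Normalised reads (vertical axes, from 0) of each of the 10 CESA genes in the 5 groups (horizontal axes), with a filled circle for the deeper library, an open triangle for the shallower library and a bar for their mean. By group mean CESA1, CESA3, CESA6 and the secondary wall trio are lowest in mock-treated wild type on PAC and PPZ, whereas CESA10 is highest there.

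Members are similar enough for some reads to be shared. Identity over aligned coding bases was 85.8% between CESA5 and CESA6, 84.7% between CESA2 and CESA9 and 84.0% between CESA1 and CESA10, and 66.9 to 78.8% in the other 42 pairs. The longest identical stretches in those 3 closest pairs were 50, 41 and 38 bases. CESA10 had 3 to 28 reads a library beside 6637 to 14131 of CESA1, and how many of these could belong to CESA1 was not tested.

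**Figure D2:**
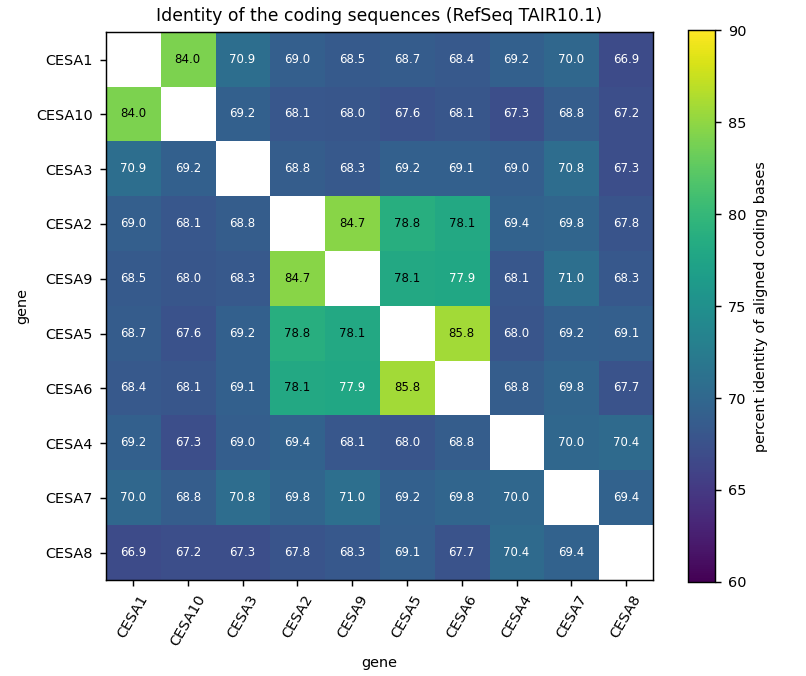
Percent identity of aligned coding bases (colour scale and printed values) for all pairs of the 10 genes, ordered so that close relatives are adjacent. The 3 closest pairs are CESA5 with CESA6 at 85.8%, CESA2 with CESA9 at 84.7% and CESA1 with CESA10 at 84.0%.

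Adding PPZ in mock-treated wild type asks what loss of brassinosteroid does when gibberellin is already low. CESA1, CESA3, CESA4, CESA6 and CESA8 fell and CESA10 rose, 6 of 10 members at a limma-voom adjusted p under 0.05, where 30.6% of all 19646 genes tested were called. By direction, 5 of 10 were lower against 15.9% of all genes, and 1 was higher against 14.7%. The median log2 change was -0.23 over the 10 members and -0.0039 over all genes.

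CESA6, the subunit of the primary complex that can be replaced by its relatives, moved most within its trio. It had 6815 and 7190 normalised reads in the deeper and shallower library of wild type on PAC, and 4789 and 4860 with PPZ added. Both PPZ libraries lay below both libraries without it, a log2 change of -0.54 ± 0.08 (SE, limma-voom adjusted p = 0.000310). CESA1, an obligate subunit, had 11430 and 11591 normalised reads without PPZ and 9305 and 8970 with it, again without overlap. Its log2 change was -0.33 ± 0.08 (limma-voom adjusted p = 0.00810). CESA3, the other obligate subunit, had 10247 and 10829 normalised reads without PPZ and 8880 and 9052 with it. The groups did not overlap, and the log2 change was -0.23 ± 0.08 (limma-voom adjusted p = 0.0392). The make-up of the trio shifted with CESA6: per kilobase it was 23.7 and 24.1% of the trio in wild type on PAC, and 20.7 and 21.1% with PPZ.

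Among secondary wall subunits CESA4 had 433.6 and 510.0 normalised reads in the deeper and shallower wild-type library on PAC and 321.8 and 340.9 with PPZ. The groups did not overlap, and the log2 change was -0.48 ± 0.11 (limma-voom adjusted p = 0.00616). CESA8 had 194.3 and 265.5 normalised reads without PPZ and 168.5 and 154.2 with it, a log2 change of -0.44 ± 0.15 (limma-voom adjusted p = 0.0402). CESA7 had 221.3 and 286.4 without PPZ and 193.1 and 223.7 with it. Its libraries overlapped between the groups, and its log2 change of -0.23 ± 0.15 did not pass (limma-voom adjusted p = 0.265).

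CESA2, CESA5 and CESA9, which can stand in for CESA6, gave log2 changes of -0.23 ± 0.09, -0.04 ± 0.08 and 0.15 ± 0.23 in the same comparison, none past the threshold (limma-voom adjusted p = 0.0612, 0.753 and 0.657). The PPZ calls depended on scaling and on single libraries, whereas the log2 changes of the members called kept their sign. Scaled by total reads, 4 of 10 members were called, since CESA3 (-0.15, limma-voom adjusted p = 0.169) and CESA8 (-0.34, adjusted p = 0.119) no longer passed. Under that scaling 64.6% of the calls over all genes were higher, against 48.1% with median-ratio size factors. Without the deeper PPZ library the calls of CESA3 (log2 change -0.22), CESA4 (-0.44) and CESA8 (-0.50) were lost. Without the shallower one those of CESA1 (-0.31), CESA3 (-0.25) and CESA8 (-0.38) were lost. CESA3 and CESA8 were also lost when any 1 of 5 other libraries was left out. Without the shallower wild-type PAC library their log2 changes were -0.19 and -0.27. Without any 1 library with GA3, which this comparison does not contrast, they stayed at -0.235 and -0.44. CESA3 was lost as well on log2(normalised reads + 1), with an adjusted p of 0.0639, and without the deeper wild-type PAC library CESA2 was called lower (-0.35, adjusted p = 0.00735). CESA6 passed under every alternative run.

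With GA3 present, adding PPZ was accompanied by lower CESA1, CESA4, CESA6, CESA7 and CESA8 and higher CESA10, 6 of 10 members where 45.9% of all genes were called. The lower calls were 5 of 10 against 22.6% of all genes, the higher call 1 of 10 against 23.4%, and the median log2 change was -0.21 over members and 0.03 over all genes. CESA4, CESA7 and CESA8, the secondary wall subunits, stood at 0.539, 0.538 and 0.525 of their level without PPZ by limma-voom. CESA4 had 710.2 and 676.1 normalised reads with GA3 on PAC and 355.7 and 395.5 with GA3 on PAC and PPZ, a log2 change of -0.89 ± 0.11 (limma-voom adjusted p = 2.99e-05). CESA7 had 433.8 and 395.3 against 237.7 and 208.0, a log2 change of -0.89 ± 0.13 (limma-voom adjusted p = 0.000182). CESA8 had 388.0 and 380.3 against 193.6 and 212.2, a log2 change of -0.93 ± 0.13 (limma-voom adjusted p = 9.89e-05). None of these 3 pairs of groups overlapped, and all 3 calls held under each alternative run.

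In the primary trio with GA3 present, CESA6 had 8087 and 7613 normalised reads without PPZ and 5389 and 5706 with it, a log2 change of -0.50 ± 0.08 (limma-voom adjusted p = 0.000345). The groups lay far apart. CESA1 had 12933 and 12332 against 10494 and 10729, also without overlap, at -0.25 ± 0.08 (limma-voom adjusted p = 0.0265). CESA3 had 11116 and 10797 against 9887 and 10453, at -0.11 ± 0.08, which did not pass (limma-voom adjusted p = 0.296). Scaling by total reads raised the median of all genes by 0.15 on the log2 scale here and the share of calls that were higher from 50.9 to 70.5%. The CESA1 call was then lost (-0.10, adjusted p = 0.324), and it was lost as well without either library with GA3 on PAC or either with GA3 on PAC and PPZ (adjusted p = 0.0661 to 0.163).

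GA3 on PAC alone asks what gibberellin does where brassinosteroid synthesis is intact. The secondary wall subunits CESA4, CESA7 and CESA8 rose and no other member was called, 3 of 10 in the authors' deposited table at a DESeq adjusted p under 0.05. Of 24020 genes tested there, 27.2% were called and 12.9% were called higher, so that the count of members is near the share of all genes called. CESA8 went from 194.3 and 265.5 normalised reads to 388.0 and 380.3, without overlap. The authors' deposited table gives a fold of 1.66 (adjusted p = 4.4e-06). CESA7 went from 221.3 and 286.4 to 433.8 and 395.3, and the fold in the authors' deposited table is 1.63 (adjusted p = 5.51e-05). CESA4 went from 433.6 and 510.0 to 710.2 and 676.1, with a fold of 1.46 in the authors' deposited table (adjusted p = 5.21e-05). In every case both GA3 libraries lay above both mock libraries. With limma-voom the log2 changes were 0.81 ± 0.15, 0.76 ± 0.14 and 0.57 ± 0.12 for CESA8, CESA7 and CESA4, all past the threshold (adjusted p = 0.00247, 0.00261 and 0.00420), where 32.5% of all genes were called and 15.9% were called higher. The CESA4 call was lost without the deeper GA3 library (adjusted p = 0.0598), and CESA2 was called lower without the deeper mock library (-0.30, adjusted p = 0.0207).

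The primary wall subunits did not pass this test. In the authors' deposited table the folds were 1.09 for CESA1, 1.04 for CESA3 and 1.12 for CESA6 (adjusted p = 0.308, 0.709 and 0.159). The limma-voom 95% intervals of the log2 change ran from -0.15 to 0.42, -0.23 to 0.33 and -0.11 to 0.43 for these genes. These intervals leave room for a change in either direction. CESA2, CESA5, CESA9 and CESA10 had folds of 0.874, 0.970, 0.823 and 1.03 in the authors' deposited table.

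On PAC and PPZ the same GA3 treatment gave no member call in the authors' deposited table, where 13.3% of 24513 genes were called by DESeq, although 3 members (CESA1, CESA6 and CESA8) had an unadjusted p under 0.05. limma-voom called CESA1, CESA3, CESA6 and CESA8 higher, 4 of 10 against 35.5% of all genes called and 17.2% called higher. CESA1 had 9305 and 8970 normalised reads with mock and 10494 and 10729 with GA3, a fold of 1.17 in the authors' deposited table (adjusted p = 0.109) and a limma-voom log2 change of 0.22 ± 0.04 (adjusted p = 0.000796). CESA6 had 4789 and 4860 with mock and 5389 and 5706 with GA3, a fold of 1.15 in the authors' deposited table (adjusted p = 0.164) and a limma-voom log2 change of 0.20 ± 0.04 (adjusted p = 0.00313). In these genes the GA3 libraries lay above the mock libraries, and the 2 tests differ on whether the gap passes. CESA3 had 8880 and 9052 against 9887 and 10453, likewise apart (0.18 ± 0.04, limma-voom adjusted p = 0.00393). CESA8 (0.32 ± 0.11, limma-voom adjusted p = 0.0342) was lost without either mock library or without the shallower GA3 library (adjusted p = 0.0672 to 0.187). In 1 fit of all 10 libraries, which shares the spread of every group, none of the 4 passed (adjusted p = 0.0789 to 0.124).

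The secondary wall subunits had smaller folds on this medium: 1.14 for CESA4, 1.07 for CESA7 and 1.26 for CESA8 in the authors' deposited table, against 1.46, 1.63 and 1.66 without PPZ. Whether the response to GA3 differed between the 2 media was tested in the fit of all 10 libraries. It was -0.66 ± 0.20 on the log2 scale for CESA7, -0.49 ± 0.20 for CESA8 and -0.41 ± 0.16 for CESA4. None of the 10 members passed (limma-voom adjusted p = 0.106, 0.219 and 0.197 for these 3), where 2.77% of all genes were called. These 3 had an unadjusted p under 0.05. At that unadjusted threshold 1763 of all 19646 genes were higher and 1600 were lower. Without the shallower wild-type PAC library, where more of all genes were called, the difference was -0.80 for CESA7 and -0.66 for CESA8. For CESA1, CESA3 and CESA6 the difference was 0.08 ± 0.12, 0.13 ± 0.11 and 0.04 ± 0.11.

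**Figure D3:**
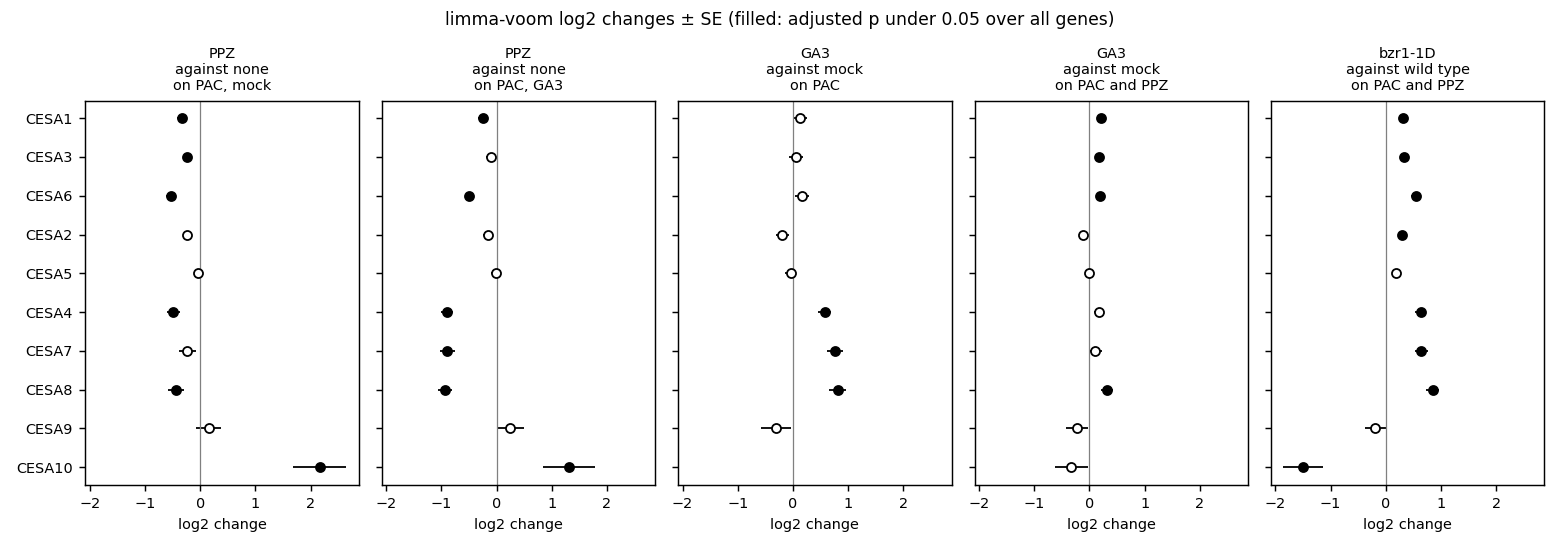
limma-voom log2 changes (horizontal axes) with SE bars for the 10 genes (vertical axis) in 5 comparisons, filled where the adjusted p over all genes was under 0.05. Adding PPZ lies left of 0 and bzr1-1D right of 0 for the primary and secondary wall trios (CESA3 with GA3 moves to 0.046 when reads are scaled by their total), CESA10 takes the opposite sides, and CESA10 has no point for GA3 on PAC because it was under the minimum mean of 10 normalised reads.

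bzr1-1D against wild type, both on PAC and PPZ, asks what the stabilised transcription factor does when both hormones are low. CESA1, CESA2, CESA3, CESA4, CESA6, CESA7 and CESA8 were higher in the mutant and CESA10 was lower, 8 of 10 members in the authors' deposited table, where 29.6% of 24621 genes were called by DESeq. By direction, 7 of 10 were higher against 14.5% of all genes, and 1 was lower against 15%. limma-voom called the same 8 members, among 47.1% of all genes (24.2% higher and 22.9% lower). The wild-type libraries of this comparison are also those of the mock comparison with and without PPZ, so the 2 sets of values are not independent of each other.

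The secondary wall subunits had the largest folds of the members called higher. CESA8 had 168.5 and 154.2 normalised reads in wild type and 271.3 and 312.9 in bzr1-1D, with a fold of 1.81 in the authors' deposited table (adjusted p = 7.14e-07). CESA7 had 193.1 and 223.7 against 297.3 and 356.3, with a fold of 1.57 (authors' deposited table, adjusted p = 0.000604). CESA4 had 321.8 and 340.9 against 472.8 and 560.8, with a fold of 1.56 (authors' deposited table, adjusted p = 7.41e-06). Mutant and wild-type libraries did not overlap for any of the 3, and with limma-voom the log2 changes were 0.85 ± 0.12, 0.65 ± 0.12 and 0.64 ± 0.10.

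In the primary trio CESA6 stood out again, with 4789 and 4860 normalised reads in wild type and 6673 and 7366 in bzr1-1D. Its fold was 1.45 in the authors' deposited table (adjusted p = 1.35e-07). CESA1 had 9305 and 8970 against 10771 and 12035, and CESA3 had 8880 and 9052 against 10978 and 11657. Both genes were higher in both mutant libraries, with folds of 1.25 and 1.26 in the authors' deposited table (adjusted p = 0.00335 and 0.00174). Reads of CESA1 and CESA3 in bzr1-1D are known only within a range, 11907 to 12090 and 12711 to 12885 for CESA1 in the deeper and shallower library and 12199 to 12321 and 12310 to 12426 for CESA3, which is narrower than the gap to wild type. CESA2 had 1700 and 1831 against 2173 and 2148, a fold of 1.22 in the authors' deposited table (adjusted p = 0.0155). With limma-voom, leaving out 1 wild-type library cost the calls of CESA1 and CESA3 in both cases and that of CESA2 without the deeper one (adjusted p = 0.0914 to 0.186), which left as few as 5 calls, while CESA4, CESA6, CESA7, CESA8 and CESA10 passed with any 1 library left out.

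CESA5 and CESA9 were not called. CESA5 had 1193 and 1328 normalised reads in wild type and 1369 and 1501 in bzr1-1D, a fold of 1.14 in the authors' deposited table (adjusted p = 0.190). It passed with limma-voom when reads were scaled by their total (0.22, adjusted p = 0.0459) or without the deeper mutant library (0.25, adjusted p = 0.00212). CESA9 had 55.0 and 60.8 against 49.2 and 51.8, a fold of 0.871 in the authors' deposited table (adjusted p = 0.739). Over the 10 libraries CESA5 varied least in the family, with its highest group mean 1.15 times its lowest.

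bzr1-1D on PAC and PPZ was also set against wild type on PAC alone, which has neither PPZ nor the mutation. limma-voom called CESA7 and CESA8 higher in the mutant, 2 of 10 where 40.9% of all genes were called and 19.9% were called higher, with log2 changes of 0.41 ± 0.14 and 0.41 ± 0.14 (adjusted p = 0.0323 and 0.0272). CESA6 differed by 0.00066 ± 0.08 and CESA1 by -0.02 ± 0.08, with 95% intervals from -0.18 to 0.18 and -0.19 to 0.16. Both calls were lost without the deeper wild-type PAC library (adjusted p = 0.475 and 0.565) and without the shallower mutant library (adjusted p = 0.212 and 0.165), and on log2(normalised reads + 1) as well (adjusted p = 0.0595 and 0.0642). With scaling by total reads, which raised the median of all genes by 0.13 and the share of higher calls from 48.6 to 65.1%, CESA3 (0.22, adjusted p = 0.0408) and CESA5 (0.27, adjusted p = 0.0191) were called as well, 4 in all.

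Against GA3-treated wild type, both on PAC and PPZ, the mutant had higher CESA2, CESA4, CESA6, CESA7 and CESA8 and lower CESA10, 6 of 10 members where 37.7% of all genes were called by limma-voom. The higher calls were 5 of 10 against 18.5% of all genes, and the lower call 1 of 10 against 19.1%. The log2 changes were 0.41 ± 0.09 for CESA2, 0.34 ± 0.08 for CESA6, and 0.46 ± 0.11, 0.54 ± 0.14 and 0.53 ± 0.13 for CESA4, CESA7 and CESA8. CESA10 was at the threshold (-1.17 ± 0.43, adjusted p = 0.0495) and did not pass in 11 of the alternatives (adjusted p = 0.0518 to 0.190). The count of members called depended on single libraries, as did that of all genes. Without the shallower mutant library the log2 changes were 0.34 for CESA4, 0.27 for CESA6, 0.41 for CESA7 and 0.43 for CESA8. Without the deeper GA3 library on PAC and PPZ they were 0.38 for CESA4, 0.30 for CESA6 and 0.45 for CESA8.

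The summed level of the secondary wall subunits moved alongside that of xylem markers. Summed over CESA4, CESA7 and CESA8, the deeper and shallower library held 849 and 1062 normalised reads in wild type on PAC, 1532 and 1452 with GA3, 683 and 719 with PPZ, 787 and 816 with PPZ and GA3, and 1041 and 1230 in bzr1-1D. The summed level of 11 xylem markers, none of which was at 0 in any library, was 2648 and 3089, 3851 and 3724, 1905 and 1907, 1834 and 1964, and 2784 and 3284 in the same order. Both sums were highest with GA3 on PAC and lowest in wild type with PPZ. Their part in the result was not tested. XCP1, XCP2 and LAC4 held most of the marker sum, and not every marker followed it. With GA3 on PAC, TED6, RNS3, BFN1 and TED7 had folds of 0.924, 0.969, 1.05 and 1.06 in the authors' deposited table. MC9, VND7, LAC17 and VND6 had folds of 1.19, 1.21, 1.58 and 2.40, and of these only LAC17 was called. VND6 had 15 and 5 reads with mock and 33 and 17 with GA3 (authors' DESeq adjusted p = 0.0672). BFN1 had 61.0 and 61.7 normalised reads with PPZ and mock, against 40.5 and 55.9 without PPZ. VND6 had 20.3 and 14.1 against 13.5 and 8.73, and 15.2 and 12.3 in bzr1-1D. Of the xylem markers, 2 are also in the list of secondary wall regulators.

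**Figure D4:**
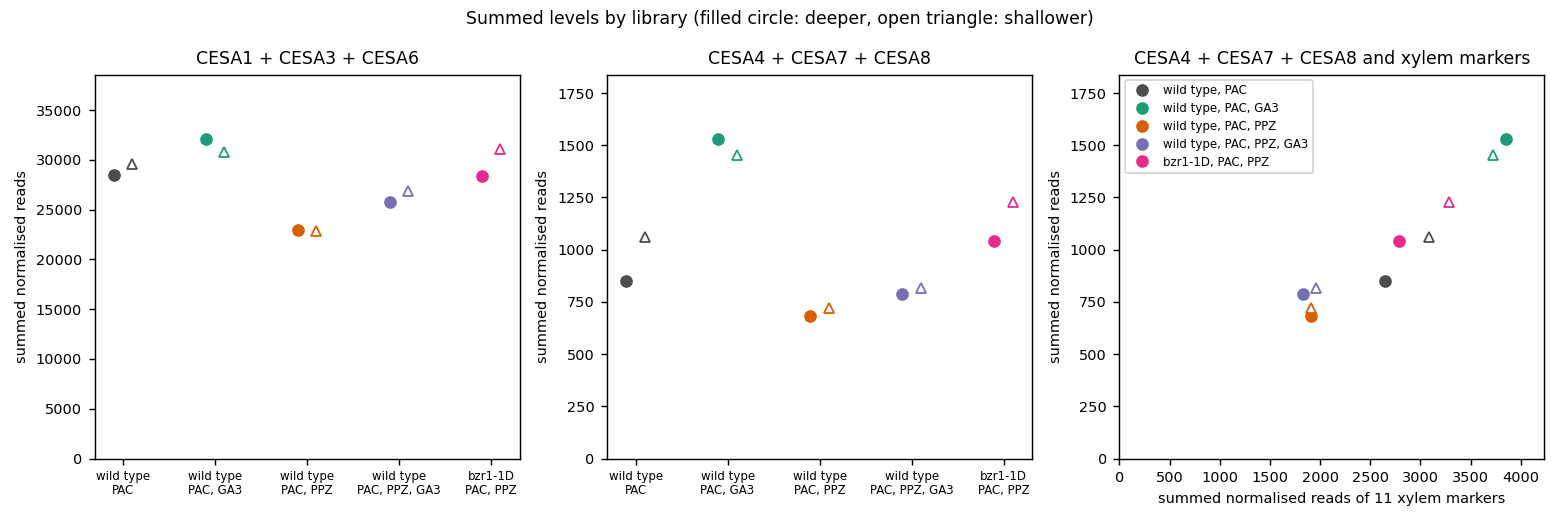
Summed normalised reads (vertical axes, from 0) of CESA1, CESA3 and CESA6 and of CESA4, CESA7 and CESA8 in each library of the 5 groups, and, on the right, the secondary wall sum against the summed normalised reads of 11 xylem markers. The wild-type libraries with PPZ lie at the lower left, between 1834 and 1964 for the markers, and those with GA3 on PAC at the upper right.

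Xylem markers were called higher with GA3 on PAC and in bzr1-1D and lower with PPZ. On PAC, GA3 raised 4 of 11 in the authors' deposited table, where 12.9% of all genes were called higher, among them the laccases LAC4 (1.58-fold) and LAC17 (1.58-fold), which polymerise lignin. limma-voom called 5 of 11 there, against 15.9% of all genes called higher. Fewer were called without the deeper GA3 library, as was the case over all genes. In bzr1-1D 7 of 11 were higher in the authors' deposited table, against 14.5% of all genes, among them LAC17 (1.85-fold), the xylem cysteine protease XCP2 (1.74-fold) and TED6 and TED7 (1.73-fold and 1.68-fold), membrane proteins of forming vessels. Adding PPZ lowered 6 of 11 with mock and 7 of 11 with GA3 by limma-voom, against 15.9 and 22.6% of all genes, with LAC4 at 0.563 and 0.381 of its level. With GA3 on PAC and PPZ none of 11 was called by DESeq in the authors' deposited table, where none had an unadjusted p under 0.05 either, and limma-voom called none of 10 (1 at an unadjusted p under 0.05) while it called CESA8. For the difference between media in the GA3 response limma-voom called 1 of 11, against 2.77% of all genes. This was the xylem cysteine protease XCP1 (-0.61 on the log2 scale, adjusted p = 0.0397), where no CESA member was called. The count of markers varied when 1 library was left out, as did that of all genes.

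Partners of the secondary wall complex were called in some of these comparisons. Of 4, which include the chitinase-like CTL2 and the fasciclin-like arabinogalactan proteins FLA11 and FLA12, 3 were higher with GA3 on PAC in the authors' deposited table. There 12.9% of all genes were called higher, and the median log2 change was 0.61 against 0.04 over all genes. FLA11 rose 1.82-fold there (authors' deposited table, adjusted p = 0.000179). In bzr1-1D all 4 were higher in the authors' deposited table, against 14.5% of all genes. FLA12 was higher by 2.62-fold, CTL2 by 2.15-fold, FLA11 by 1.89-fold and the COBRA-like protein COBL4 by 1.59-fold, with a median of 1.01 against 0.02 over all genes. Adding PPZ with GA3 lowered all 4 by limma-voom, with a median of -0.87 against 0.03. The share of all genes called lower was 22.6% there and 15.9% with mock. With mock, PPZ lowered 1 of 4 by limma-voom, and 0 to 2 without 1 library. GA3 on PAC and PPZ called none of the 4 in the authors' deposited table, by DESeq, where 13.3% of all genes were called. There 1 had an unadjusted p under 0.05, and limma-voom called 1. The limma-voom shares of all genes called higher were 17.2% there, 15.9% with GA3 on PAC and 24.2% in bzr1-1D. By limma-voom the count for GA3 on PAC was 3, and 1 without the deeper mock or the deeper GA3 library. That for PPZ with GA3 was 2 without the deeper library with GA3 on PAC, and that for bzr1-1D was 3 to 4 without any 1 library.

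Of 9 regulators of the secondary wall, 3 or 4 were at 0 in a given library. GA3 on PAC raised MYB46 2.72-fold and KNAT7 2.05-fold in the authors' deposited table (adjusted p = 0.00457 and 0.000541). These were 2 of 6 with a test there, against 12.9% of all genes called higher. MYB46 had few reads, 16 and 10 with mock and 46 and 33 with GA3. MYB46 is a master switch of the secondary wall programme and KNAT7 a homeodomain regulator beneath it. The levels of MYB46 and KNAT7 with GA3 fell on adding PPZ, to 0.392 and 0.533 of the level without it (limma-voom adjusted p = 0.00335 and 0.00105). They were 2 of 5 tested, against 22.6% of all genes called lower. In bzr1-1D none of the 6 was called by DESeq in the authors' deposited table, where 29.6% of all genes were called, with 1 at an unadjusted p under 0.05. limma-voom called 1 of 4 higher, against 24.2% of all genes.

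Of 13 partners of the primary wall complex, 11 had a test in the authors' deposited tables. In bzr1-1D 8 of 11 were higher in the authors' deposited table, against 14.5% of all genes, among them KOR1, a membrane endoglucanase needed for cellulose synthesis (1.52-fold), the chitinase-like CTL1 (1.53-fold) and AT5G42860 (1.98-fold). The median log2 change was 0.37 against 0.02 over all genes. CSI2 and CSI3, relatives of the microtubule linker CSI1, were not called in the authors' deposited table, at 0.804 and 0.875 of the wild-type level. limma-voom called 8 of 11 higher and 1 lower there, against 24.2 and 22.9% of all genes. GA3 raised 5 of 11 on PAC, against 12.9% of all genes, and 4 of 11 on PAC and PPZ in the authors' deposited tables, with AT5G42860 at 1.79-fold and 1.55-fold. On PAC and PPZ 13.3% of all genes were called there in either direction. By limma-voom 15.9 and 17.2% of all genes were called higher with GA3 on the 2 media. limma-voom called 4 of 11 and 9 of 11 higher in these comparisons, and 1 to 6 and 6 to 8 without 1 library; the low count on PAC came without the deeper GA3 library, and 2 were called without the shallower one. Adding PPZ lowered 3 of 11 with mock and 5 of 11 with GA3 by limma-voom, against 15.9 and 22.6% of all genes, KOR1 to 0.634 and 0.659 of its level. The second count was 3 without the deeper library with GA3 on PAC or the shallower one with PPZ and GA3.

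Of 8 genes that supply UDP-glucose, the substrate of the synthases, 2 were higher and 1 lower in bzr1-1D in the authors' deposited table. The shares of all genes there were 14.5 and 15%, and the sucrose synthases SUS5 and SUS6 stood at 1.77-fold and 1.53-fold. By limma-voom 4 of 8 were higher and 1 lower, against 24.2 and 22.9% of all genes. Adding PPZ raised SUS1 3.19-fold and SUS3 2.01-fold with mock, among 3 of 8 higher and 1 lower by limma-voom, against 14.7 and 15.9% of all genes. In the cellulose synthase-like genes, which make other wall polysaccharides, GA3 raised 7 of 12 on PAC in the authors' deposited table. There 12.9% of all genes were called higher, and the median log2 change was 0.50 against 0.04. Those raised included CSLA9 (1.79-fold), a glucomannan synthase, and CSLC4 (1.70-fold), a xyloglucan backbone synthase. limma-voom called 7 of 10 higher, against 15.9% of all genes. Fewer were called without either GA3 library, as was the case over all genes. On PAC and PPZ the authors' deposited table has 6 of 12 higher and 1 lower, where 13.3% of all genes were called in either direction, with CSLA9 at 2.09-fold and CSLD5 at 1.98-fold. In bzr1-1D 5 of 12 were higher in the authors' deposited table, against 14.5% of all genes, with CSLC4 at 2.11-fold and CSLA9 at 1.75-fold.

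CESA10, the rarest member, was called in the opposite direction to the others wherever it was called. It had 3 and 6 reads in the deeper and shallower library of wild type on PAC, 9 and 4 with GA3, 28 and 25 with PPZ, 20 and 21 with PPZ and GA3, and 8 and 9 in bzr1-1D. The 4 wild-type libraries with PPZ were all above the other 6, also after scaling, at 15.7 to 23.7 normalised reads against 2.70 to 10.5. Pooled within groups and corrected for library size, CESA10 was 4.28-fold higher with PPZ than without under mock (95% interval 2.09 to 9.87, for counting error alone) and 2.57-fold higher under GA3 (1.35 to 5.23). It was 2.93-fold higher in wild type than in bzr1-1D, both on PAC and PPZ (1.67 to 5.40).

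The matching log2 changes from limma-voom were 2.16 ± 0.49 for PPZ with mock (adjusted p = 0.00496), 1.31 ± 0.47 for PPZ with GA3 (adjusted p = 0.0354) and -1.50 ± 0.36 for bzr1-1D (adjusted p = 0.00445). For bzr1-1D the authors' deposited table gives CESA10 a fold of 0.342 (adjusted p = 0.0283). The call for PPZ with mock was lost without the deeper wild-type PAC library, which held 3 reads (1.04, adjusted p = 0.152). That for PPZ with GA3 was lost without either library with GA3 on PAC or without the shallower one with PPZ and GA3 (adjusted p = 0.104 to 0.150). The bzr1-1D call held with any 1 library left out.

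Among the 7 root markers, the root hair genes EXPA7 and COBL9 followed CESA10, while some others did not. EXPA7, a root hair expansin, had 7 and 2 reads in wild type on PAC, 3 and 2 with GA3, 25 and 25 with PPZ, 33 and 34 with PPZ and GA3, and 5 and 3 in bzr1-1D. COBL9, a COBRA-like protein of root hairs, had 6 and 1, 11 and 5, 37 and 31, 30 and 36, and 12 and 10 in that order. Both had their highest reads in the 4 wild-type libraries with PPZ, as CESA10 did. The root stem cell regulator PLT2 was also higher with PPZ under mock (6.91-fold by limma-voom, 23 and 40 reads against 5 and 1). PLT1 had 18 and 22 reads with PPZ against 5 and 2, and 14 and 8 in bzr1-1D. WOX5 had 11 and 5 reads with PPZ against 6 and 3, but 10 and 13 in bzr1-1D, and NRT2.1 had 0 to 3 reads a library. The root aquaporin TIP2;3, which held most reads of the list, was 4.57-fold lower with PPZ under mock. Summed over 7 root markers the level was 2351 to 3666 normalised reads without PPZ, 721 to 897 in wild type with PPZ and 1434 and 1915 in bzr1-1D. Seed reserve genes summed to 16169 and 23646 in wild type on PAC, 3713 and 3229 with GA3, 40174 and 35148 with PPZ, 10432 and 6072 with PPZ and GA3, and 21096 and 30682 in bzr1-1D. Of these 9 genes 8 were called lower with GA3 on either medium in the authors' deposited tables, where CESA10 was not called. Of all genes, 27.2% on PAC and 13.3% on PAC and PPZ were called there in either direction. The part of these root and seed genes in the CESA10 result was not tested. Markers of the seed coat, the site CESA9 is known from, summed to 1522 to 2879 normalised reads in the 10 libraries. MUM4 and MUM2 held nearly all of this sum, whereas the other marker, PER36, had 0 to 3 reads a library.

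Sequence upstream of CESA10 is shown because it was the only member with a G-box or brassinosteroid response element, letters that BZR1 is known to bind, within 250 bases of its annotated start, beside CESA1, its nearest relative, and CESA4, the only member with a tracheary element motif there. The sequences come from RefSeq (TAIR10.1) by locus identifier and hold the 250 bases before the annotated gene start, read on the gene's own strand with -1 as the last base. CESA10 and CESA1 lie on the minus strand of chromosomes 2 and 4, and CESA4 on the plus strand of chromosome 5. Which build the deposited tables rest on is not stated, so no coordinates are given. Capitals mark the G-box with the overlapping brassinosteroid response element in CESA10 and the tracheary element motif in CESA4; E-boxes elsewhere are left in lower case.
CESA10: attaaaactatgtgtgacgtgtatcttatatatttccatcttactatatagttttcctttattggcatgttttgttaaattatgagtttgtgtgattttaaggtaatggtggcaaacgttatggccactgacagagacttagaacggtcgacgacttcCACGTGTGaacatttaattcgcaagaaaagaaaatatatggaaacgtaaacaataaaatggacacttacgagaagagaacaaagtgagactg
CESA1: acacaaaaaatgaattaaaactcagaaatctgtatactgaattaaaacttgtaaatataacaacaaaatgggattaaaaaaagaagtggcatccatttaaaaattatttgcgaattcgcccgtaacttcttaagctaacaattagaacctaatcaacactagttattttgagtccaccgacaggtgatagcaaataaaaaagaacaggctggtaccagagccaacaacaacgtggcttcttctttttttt
CESA4: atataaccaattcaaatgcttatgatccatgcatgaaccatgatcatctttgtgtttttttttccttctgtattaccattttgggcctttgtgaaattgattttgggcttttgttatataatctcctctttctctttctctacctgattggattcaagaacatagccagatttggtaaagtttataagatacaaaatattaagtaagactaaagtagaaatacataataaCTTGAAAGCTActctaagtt

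Motifs were searched on both strands as G-box CACGTG, brassinosteroid response element CGTGTG or CGTGCG, E-box CANNTG, and the tracheary element-regulating motif, TERE. In CESA10 a G-box begins at position -92 and a brassinosteroid response element at -90, overlapping it by 4 bases. In CESA4 the tracheary element motif begins at -20. Of 27444 genes, 6.49% hold a G-box within 250 bases, 6.71% a brassinosteroid response element and 0.368% the tracheary element motif. An E-box, which includes the G-box, is held by 55.3%, and 8 of the 10 members have one, among them CESA1 at -70 and CESA4 at -238. Within 1000 bases CESA2 also holds a G-box, at -323, as do 14.8% of all genes. A match is a description of letters and shows no binding.

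Members of the same complex varied together over the 10 libraries. On log2(normalised reads + 1), Pearson's r was 0.88 to 0.96 among CESA1, CESA3 and CESA6 and 0.95 to 0.97 among CESA4, CESA7 and CESA8, over 10 libraries that share groups and treatments. It was 0.76 to 0.95 between members of the 2 trios, so the trios were not set apart from each other by this measure. CESA5 and CESA2 correlated at 0.74 with each other. Within the secondary wall trio the make-up per kilobase stayed within 43.5 to 49.3% for CESA4, 25.8 to 31.6% for CESA7 and 22.7 to 27.6% for CESA8.

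Among 18848 genes, those whose profile was most like the sum of CESA1, CESA3 and CESA6 were GAD2, a glutamate decarboxylase (r = 0.993), AT3G05150 (0.988), CSI1, which links the synthase complex to microtubules (0.987), AT3G48970 (0.985) and GATL7 (0.983). For the sum of CESA4, CESA7 and CESA8 they were HERK1, a receptor kinase that promotes cell elongation (r = 0.996), AT5G55960 (0.992), the kinase NEK6 (0.992), AT2G36410 (0.991) and SNAP33, a membrane fusion protein (0.988). These are the highest of many correlations over 10 libraries in 5 groups, and no member of the xylem or secondary wall lists is among them.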

How the data were processed

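For 10 libraries in 5 groups the authors used TopHat and DESeq, per the submitters' processing notes. No source used here gives versions, the genome build, the annotation or the counting program. For each of 3 comparisons a table was deposited. Its signal columns are group means of counts divided by size factors, per the file headers. The deposited fold is the ratio of the 2 means, and the deposited p-value columns are those of the authors' DESeq test. Rows that name no gene (5 a table) were left out; reads with several alignments were 8.61 to 10.7% of a group's total.

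Low group means add up whole multiples of 2 steps, 1 per library. This gave whole reads per library for 99.96 to 100% of genes above 0. In bzr1-1D 103 genes, CESA1 and CESA3 among them, were known within 2% and took the middle candidate. The recovery was tested on simulated data: in bzr1-1D 64 of 23736 genes were wrong, by at most 0.612%, and in the other 4 groups none. Libraries are named by depth because the recovery does not show which is the repeat. No pair agreed within counting noise (chi-square over degrees of freedom 2.32 to 9.94).

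The calls of the 3 deposited comparisons are the authors' at an adjusted p under 0.05. Log2 changes and the 5 other comparisons come from limma-voom (limma 3.58.1, R 4.3.3) on recovered reads with median-ratio size factors and a mean of at least 10 normalised reads, with Benjamini-Hochberg adjustment over all genes. The deposited comparisons were fitted on their own 4 libraries, the others on all 10. On simulated data it recovered 79, 85 and 89% of 2-fold changes in the 3 deposited comparisons, with 8, 8 and 5 false calls. Only a small part of the genes was changed there, unlike the real comparisons, where far larger shares were called. The fit of all 10 libraries was not simulated. Intervals on CESA10 reads are exact binomial ones at 95%.

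All 10 members are described in each comparison. From each list, up to 4 genes were named that were called and changed at least 1.5-fold. The members and lists were chosen with earlier results of these data known. Coding and upstream sequences came from RefSeq TAIR10.1 by locus identifier.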

Additional observations from a re-analysis of the deposited data

How the results depend on the processing

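No paired analysis was possible because the recovered libraries carry no replicate number. For GA3 on PAC and PPZ, where the authors' deposited table called no member, 4 were called by limma-voom, with scaling by total reads, with a minimum mean of 1, and on log2(normalised reads + 1) or + 8, and 3 to 4 with 1 library left out. With 1 library left out, calls ranged from 5 to 9 for bzr1-1D against wild type, from 3 to 6 for PPZ with mock, from 0 to 2 for the difference between GA3 effects, from 0 to 2 for the mutant against mock-treated wild type on PAC, and from 1 to 7 for bzr1-1D against GA3-treated wild type. For the mutant against wild type on PAC, scaling by total reads gave 4 calls and log2(normalised reads + 1) gave 0. Scaling by total reads moved the share of higher calls for the difference between GA3 effects from 46.8 to 67.8%. Calls for GA3 on PAC (2 to 4) and PPZ with GA3 (4 to 6) stayed within 1.5 times under every alternative run. Without length, CESA1 stood above CESA3 in 5 groups in place of 4. The cause was not tested for any of these.

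Of 911 recomputed member values 31 changed sign, in 18 results, and none of these passed a threshold in either fit. Scaling by total reads gave 0.022 for CESA5 with GA3 on PAC and PPZ, 0.048 for CESA5 with PPZ and mock, 0.046 for CESA3 and 0.14 for CESA5 with PPZ and GA3, and 0.10 for CESA1 and 0.085 for CESA9 in the mutant against wild type on PAC, where log2(normalised reads + 1) gave 0.048 for CESA9. With 1 library left out, log2 changes ranged from -0.51 to 0.033 for CESA9 with GA3 on PAC. With GA3 on PAC and PPZ they ranged from -0.091 to 0.064 for CESA5 and -0.41 to 0.025 for CESA9. With PPZ and mock they ranged from -0.12 to 0.038 for CESA5 and -0.039 to 0.50 for CESA9, and with PPZ and GA3 from -0.048 to 0.016 for CESA5. For the difference between GA3 effects they ranged from -0.053 to 0.19 for CESA2, -0.054 to 0.10 for CESA5, -0.0042 to 0.083 for CESA6, -0.26 to 0.34 for CESA9 and -1.57 to 0.28 for CESA10. For the mutant against wild type on PAC they ranged from -0.096 to 0.064 for CESA1, -0.058 to 0.18 for CESA2, -0.071 to 0.072 for CESA6, -0.23 to 0.31 for CESA9 and -0.46 to 1.39 for CESA10. For bzr1-1D against GA3-treated wild type they ranged from -0.22 to 0.22 for CESA9. Depth limits CESA10, with at most 28 reads a library, and CESA9, with at most 69.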
